A study of Macaca fascicularis with 11 samples.

Results

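KRT7, KRT8, KRT18 and KRT19, the keratins of single-layered (simple) epithelia, were followed across the cell types of cynomolgus macaque embryos cultured through the days after implantation. These 4 of the 19367 genes in the deposited matrix were taken by symbol as a family, with no threshold on a measured value, although earlier results of these data were known. The files list them as ENSMFAG00000032813 (KRT7), ENSMFAG00000040972 (KRT8), ENSMFAG00000043037 (KRT18) and ENSMFAG00000003391 (KRT19), and all 4 were found. Together they accounted for 4502732 transcripts, 0.461% of all transcripts counted.

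A keratin filament is built from pairs of chains, one of type II and one of type I, and a chain without a partner is degraded. KRT7 and KRT8 are type II chains, and KRT18 and KRT19 are type I chains. KRT8 and KRT18 are the classical pair of the early embryo, made in the outer layer of the blastocyst. KRT7 is the keratin by which trophoblast is recognised in sections of the placenta, and KRT19 is a type I chain with almost no tail that is common in ducts, surface epithelia and mesothelium. The genes of KRT8 and KRT18 lie side by side, unlike those of most pairs.

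Single-cell RNA sequencing covered 3 days of culture, Day 10, Day 12 and Day 14, in 6 wild-type libraries (2 for each day, from 12 embryos) and 5 libraries of ISL1 hypomorphic mutants (1 at Day 10, 2 at Day 12 and 2 at Day 14, from 11 embryos). All embryos were frozen blastocysts that were thawed, freed of the zona pellucida and grown on plates without a uterus in 2 culture media given in succession. The mutants had been injected as zygotes with Cas9 and guide RNAs against ISL1, a transcription factor gene used in amnion. The sample labels give the Cas9 as SpCas9 mRNA and the methods of the study as protein. They were mosaic, so a mutant library holds cells with different edits. A library pooled 1 to 3 embryos, and p-values measure the spread between such pools.

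A library held 325 to 9625 cells and 36654977 to 164808415 unique molecular identifiers (UMIs, one per captured transcript). The median cell held 10916 to 142180 UMIs, and ambient RNA removed by the authors had made up 0.196% to 8.77% of a library. Of 33205 cell barcodes, 124 occurred in more than 1 library. ISL1 was at 1.90 and 1.88 CPM (UMIs scaled to counts-per-million) in the wild-type libraries of Day 10, 0.901 and 8.38 at Day 12, then 2.31 and 5.62 at Day 14, and at 4.67 in the mutant library of Day 10, 1.42 and 2.83 at Day 12, then 3.19 and 2.63 at Day 14. In amnion-like cells of Day 14 it was at 141 and 188 CPM in wild type and at 248 and 230 in the mutants. An edit need not lower the amount of mRNA, so these values do not check the genotype labels.

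Cells were grouped into types by clustering without the 4 keratins, and a type is written with the ending -like because the names rest on marker genes. Epi-like cells express pluripotency genes, and transition-like, mesoderm-like and amnion-like cells are other Epi-derived cells. Endoderm-like cells carry yolk-sac genes such as APOA1 and TTR, and ExE-Mech-like cells are extraembryonic mesenchyme with collagen genes such as COL3A1. For each library with at least 5 cells of a type, the UMIs of a gene in those cells were added up and expressed as CPM of the total of these cells. These are counts from the 3′ ends of transcripts, which were not scaled by length. Reads that a keratin shares with processed copies or related keratins elsewhere in the genome could not be traced in count tables, so levels of KRT8 and KRT18 in particular are those the authors' counting assigned.

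The keratins had distinct distributions. By their medians over libraries, KRT8 and KRT18 were highest in amnion-like cells and lowest in Epi-like cells, KRT19 was highest in amnion-like cells followed by trophoblast-like and endoderm-like cells, and KRT7 had its highest median in trophoblast-like cells, followed by Epi-like cells. Levels of the types are given as a description with no test, because types are clusters of the same cells. Trophoblast-like cells were 59.0% to 90.8% of the cells of a library and held 72.3% to 96.8% of its keratin transcripts.

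**Figure D1:**
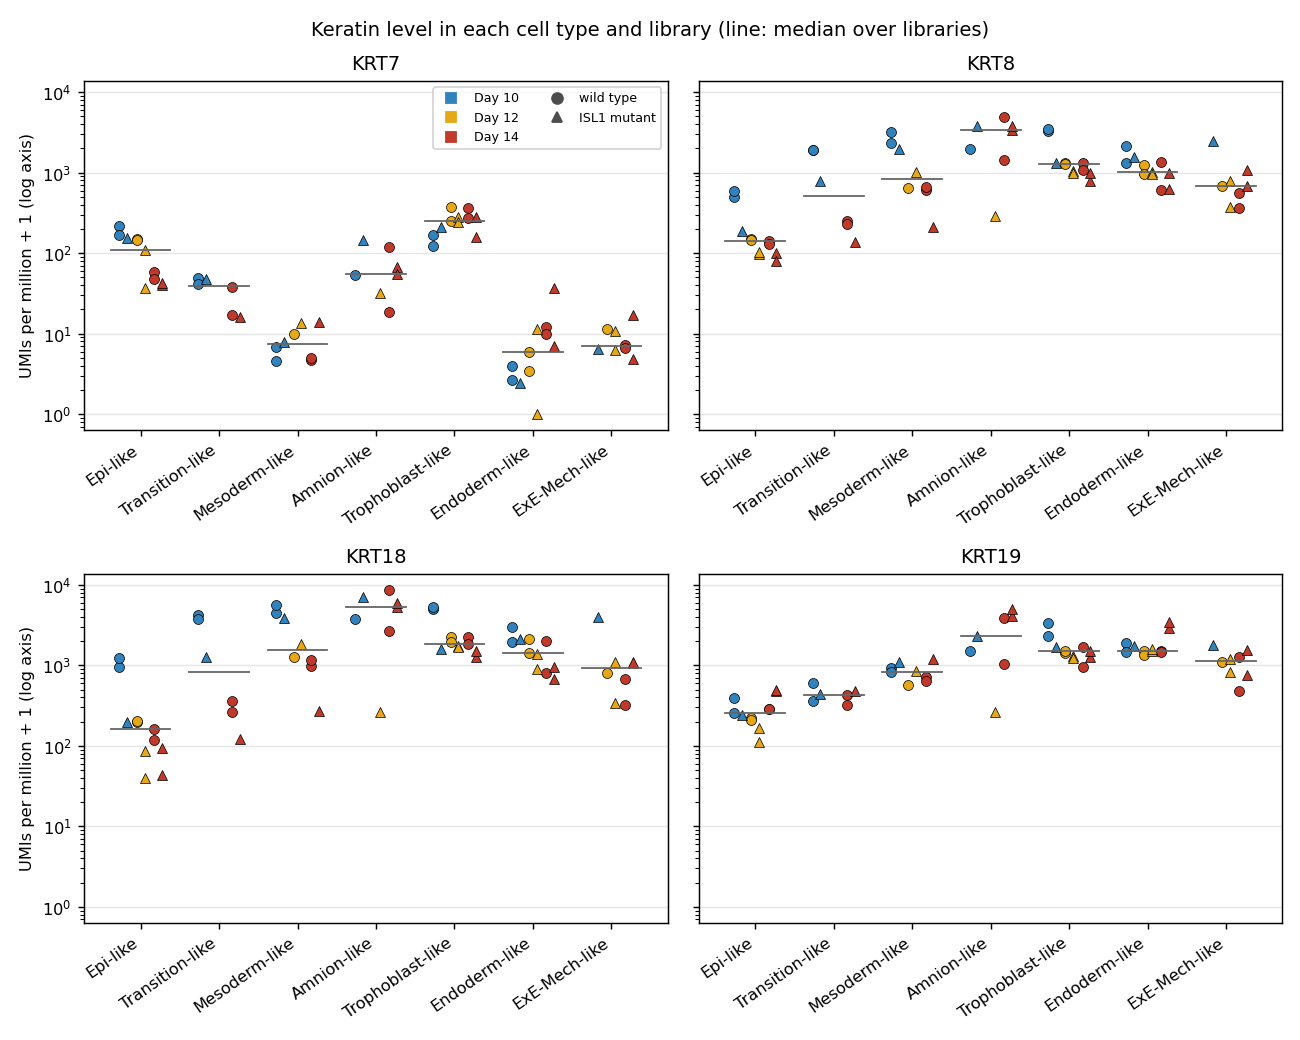
Level of each keratin (CPM + 1, log axis) in 7 cell types, with 1 symbol per library (circles, wild type; triangles, mutant; color, day) and the median over libraries as a line. KRT7 has its highest median, 248, in trophoblast-like cells, while the other 3 keratins have theirs in amnion-like cells, at 3426, 5328 and 2327.

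Over 7 libraries KRT18 was at a lowest level of 261, a median of 5328 and a highest level of 8742 CPM in amnion-like cells. Its median was 1834 in trophoblast-like, 1560 in mesoderm-like, 1415 in endoderm-like, 938 in ExE-Mech-like, 816 in transition-like and 163 in Epi-like cells. KRT8 ran in nearly the same order, with medians of 3426 in amnion-like, 1273 in trophoblast-like, 1032 in endoderm-like, 845 in mesoderm-like, 685 in ExE-Mech-like, 513 in transition-like and 140 in Epi-like cells. In amnion-like cells KRT18 stood at a median rank of 22 among all genes and in 1 library at rank 4.

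Neighbours in this order were often not separated within a library. KRT18 was higher in amnion-like than in trophoblast-like cells of 5 of 7 libraries, by 0.78 ± 1.84 (mean ± SD of the log2 difference). Of the libraries that went the other way, mutant Day 12 replicate 1 did so the most, and its amnion-like cells had little ISL1. Without that library, left out after the data were seen, they were higher in 5 of 6 libraries, by 1.36 ± 1.09, and KRT8 by 1.18 ± 1.15. Trophoblast-like cells exceeded endoderm-like cells in 10 of 11 libraries, by 0.59 ± 0.52. The lower end was clearer, since Epi-like cells were below trophoblast-like cells in 11 of 11 libraries for KRT18 (3.70 ± 1.03) and for KRT8 (3.09 ± 0.31).

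In wild-type Epi-like cells both partners of the embryonic pair were high at Day 10 and low afterwards. KRT18 was at 949 and 1219 CPM in the libraries of Day 10, 198 and 204 at Day 12, then 117 and 163 at Day 14. KRT8 was at 494 and 588, then 147 and 143, then 140 and 128. Both Day 10 libraries lay above all 4 later ones for each gene, and the step fell between Day 10 and Day 12.

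From Day 10 to Day 14 KRT18 fell in Epi-like cells by 2.95 on the log2 scale (SE 0.38, 7.74-fold, adjusted p = 0.00108, edgeR's quasi-likelihood test with Benjamini-Hochberg adjustment over 10399 genes), and KRT8 fell by 1.98 (SE 0.23, 3.93-fold, adjusted p = 0.000666). Of all genes tested there, 1.37% passed the same threshold, a false discovery rate of 1%. Without wild-type Day 14 replicate 1 neither passed (adjusted p = 0.0604 for KRT18 and 0.0226 for KRT8). By Day 12 KRT8 had fallen by 1.89 (SE 0.23, adjusted p = 0.00366 by edgeR), where 0.0481% of genes passed, and KRT18 differed by -2.42 (SE 0.37) without passing (adjusted p = 0.0171 by edgeR). The Day 12 call of KRT8 was lost in the uncorrected counts, in a fit of the compared groups alone and without any one of wild-type Day 10 replicates 1 and 2, wild-type Day 12 replicate 2, mutant Day 12 replicate 1 and mutant Day 14 replicate 2.

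The trophoblast marker list covers the most numerous cells of each library. At Day 10 in wild type it summed to 201 and 298 CPM in Epi-like and to 11254 and 8201 in trophoblast-like cells. KRT18 was there at 949 and 1219 in Epi-like and at 4948 and 5329 in trophoblast-like cells. Levels were also taken in Epi-like cells without a single UMI of the trophoblast hormone gene CGA. KRT18 there was at 0.977 times its level in all Epi-like cells (median over 11 libraries, 0.607 to 1.12). KRT8 was at 1.00 times (0.804 to 1.28). The ambient correction itself used choriogonadotropin in epiblast cells, so these ratios cannot show how much trophoblast RNA remained. CGA was at 10.3 and 3.32 CPM in wild-type Epi-like cells of Day 10. Of the trophoblast-like cells of these libraries, 173 of 448 and 210 of 412 had no CGA UMI either. The part of trophoblast RNA in the levels of KRT8 and KRT18 was not tested. The mutant library of Day 10 had Epi-like levels of 195 for KRT18 and 188 for KRT8, below both wild-type libraries of that day. It is a single library, so this difference has no replicate check.

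The same decline was seen in transition-like cells, which carry genes of cells leaving the epiblast state. KRT18 was at 4265 and 3804 CPM in wild type at Day 10 and at 359 and 263 at Day 14. KRT8 was at 1921 and 1909 and then at 247 and 232. The days did not overlap, and at Day 12 no library had 5 such cells. KRT18 fell by 3.66 (SE 0.29, 12.6-fold, adjusted p = 0.00102, edgeR) and KRT8 by 2.96 (SE 0.23, 7.80-fold, adjusted p = 0.00102, edgeR), where 0.254% of genes passed. These calls were kept in every alternative tried for them, leaving out single libraries included. The cells compared were few, 14 and 26 at Day 10 and 98 and 39 at Day 14. Mutant transition-like cells had KRT18 at 1273 at Day 10 and at 121 at Day 14, with 1 library each.

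**Figure D2:**
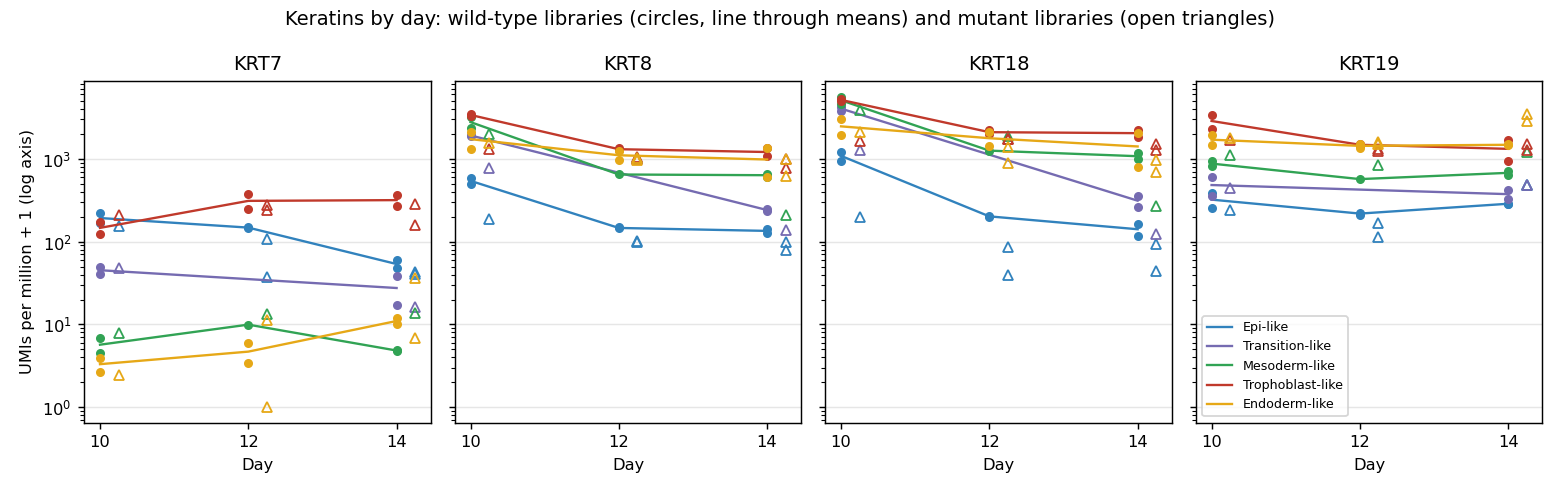
Level of each keratin (CPM + 1, log axis) by day in 5 cell types, with wild-type libraries as circles joined through their means and mutant libraries as open triangles set to the right. KRT8 and KRT18 drop after Day 10 in wild-type Epi-like and transition-like cells, KRT19 stays between 211 and 389 in wild-type Epi-like cells, and KRT7 runs from 218 to 47.1 in those cells and from 122 to 371 in wild-type trophoblast-like cells.

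Mesoderm-like cells express MESP1 and MIXL1. The study takes such cells as likely extraembryonic mesoderm at Day 10 and as embryonic mesoderm at Day 14. The days may thus compare different populations, which was not tested. KRT18 in mesoderm-like cells was at 4534 and 5641 CPM in wild type at Day 10, 1254 at Day 12, then 984 and 1164 at Day 14. KRT8 followed with 2337 and 3209, then 645, then 603 and 663. The mutant libraries with such cells, 1 for each day, had KRT18 at 3929, 1866 and 271 and KRT8 at 1986, 1028 and 211. They lay below wild type at Day 10 and Day 14 and above it at Day 12. Day 10 and Day 14 did not overlap in wild type here either, while KRT8 at Day 12 lay between its Day 14 values. The differences from Day 10 to Day 14, -2.19 (SE 0.28) for KRT18 and -2.08 (SE 0.28) for KRT8, had adjusted p = 0.0640 and 0.0730 by edgeR. No gene passed in that comparison of 9488 genes (0%) by edgeR, and 2 of the 4 keratins had an unadjusted p below 0.05. The highest adjusted p over the alternatives was 0.247 for both, and with DESeq2 or without the filter on low counts both passed. KRT8 also passed with another seed of the cell map and KRT18 with clusters drawn on principal components (adjusted p = 0.00896 and 0.00471 by edgeR). The share of all genes that passed in these alternatives is not given here. KRT19 differed by -0.31 (SE 0.25) and KRT7 by -0.27 (SE 0.58).

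In trophoblast-like cells the levels of the pair were also lower after Day 10. KRT8 was at 3309 and 3462 CPM in wild type at Day 10, 1337 and 1273 at Day 12, then 1332 and 1081 at Day 14. KRT18 was at 4948 and 5329, then 2222 and 1970, then 2243 and 1834. Both Day 10 libraries exceeded all later ones. The mutant library of Day 10 was at 1309 for KRT8 and 1620 for KRT18, among the later wild-type values for KRT8 and below them for KRT18, and has no replicate. KRT8 fell by 1.49 from Day 10 to Day 14 (SE 0.24, adjusted p = 0.00987, edgeR), in a comparison where 2.18% of genes passed, and KRT18 differed by -1.33 (SE 0.24, adjusted p = 0.0128, edgeR). The call of KRT8 was lost with the batch number as a replicate block (adjusted p = 0.0177, edgeR), in a fit of the compared groups alone (adjusted p = 0.0543, edgeR) and in each fit that left out 1 library, with adjusted p from 0.0107 to 0.0590. At Day 12, where 0.403% of genes passed, the adjusted p was 0.0173 for KRT8 and 0.0204 for KRT18 (edgeR).

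Classes of trophoblast-like cells also differed in the pair at Day 10. In the libraries of that day, 206 and 194 wild-type trophoblast-like cells could not be given a class, and among all trophoblast-like cells of Day 10 a cluster of 81 was led by the Epi markers KHDC3L and DPPA5. The cells without a class had KRT18 at 7993 and 8217 CPM and KRT8 at 4775 and 4870. Cytotrophoblast-like cells, the proliferating stem layer of the placenta, had KRT18 at 2563 and 2740 and KRT8 at 2160.5 and 2200.3 in the same libraries. Within cytotrophoblast-like cells KRT8 differed from Day 10 to Day 14 by -0.84 (SE 0.24, adjusted p = 0.0759) and KRT18 by -0.53 (SE 0.24, adjusted p = 0.239, both by edgeR), and 1% of genes passed there. Of all genes tested in these cells, 0.641% passed from Day 10 to Day 12, where KRT19 differed by -0.78 (SE 0.24, adjusted p = 0.0898, edgeR) and KRT8 by -0.68 (SE 0.24, adjusted p = 0.133, edgeR). Whether the mix of classes accounts for the difference in all trophoblast-like cells was not tested.

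Endoderm-like cells kept both partners at all days. KRT18 ranged from 684 to 2997 CPM over 11 libraries with a median of 1415, and KRT8 from 603 to 2123 with a median of 1032. Wild-type libraries overlapped between Day 10 and Day 14 for KRT8 (1330 and 2123 against 1355 and 603), with a difference of -0.82 (SE 0.44, adjusted p = 0.631 by edgeR), where 0.0205% of genes passed. In ExE-Mech-like cells KRT18 was at 798 CPM in the wild-type library of Day 12 and at 681 and 319 in those of Day 14. The mutant library of Day 10, the only library of that day with such cells (59 of them), had KRT18 at 3990 and KRT8 at 2487, the highest of the 8 libraries for both genes.

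The pair was also linked from cell to cell. With each cell thinned to 10000 UMIs, Spearman's rho between KRT8 and KRT18 was 0.528 to 0.911 in trophoblast-like cells (median 0.595, 11 libraries), 0.600 to 0.826 in ExE-Mech-like cells (8 libraries) and 0.150 to 0.584 in Epi-like cells (7 libraries). Over the 62 sums of a type in a library, the Pearson correlation of log2 levels was 0.983 between KRT8 and KRT18. These coefficients are descriptions: cells of a library share their preparation, and sums of a library share its embryos and depth.

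KRT19, the other type I chain, had nearby values on all days in Epi-like cells. It was at 389 and 252 CPM in wild type at Day 10, 223 and 211 at Day 12, then 287 and 284 at Day 14. Day 10 and Day 14 overlapped, with a difference of -0.15 (SE 0.29, adjusted p = 0.837 by edgeR). In transition-like cells the difference was -0.33 (SE 0.30, adjusted p = 0.673 by edgeR). The interval of 2 SE on either side ran from -0.73 to 0.43 in Epi-like cells, so a fall as large as that of KRT18 lay outside it.

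Among types, the medians of KRT19 were 2327 CPM in amnion-like, 1518 in trophoblast-like, 1516 in endoderm-like, 1144 in ExE-Mech-like, 834 in mesoderm-like, 433 in transition-like and 252 in Epi-like cells. Endoderm-like cells were above trophoblast-like cells in 7 of 11 libraries, by 0.17 ± 0.65 (SD, log2). Amnion-like cells were above trophoblast-like cells in 4 of 7 (0.33 ± 1.62) and above endoderm-like cells in 5 of 7 (-0.02 ± 1.24). These types did not separate. In trophoblast-like cells KRT19 was at 3409 and 2313 in wild type at Day 10 and at 945 and 1690 at Day 14, and the difference of -1.16 (SE 0.29) did not pass (adjusted p = 0.0376, edgeR).

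Across the 62 sums KRT19 correlated with KRT8 at 0.764 and with KRT18 at 0.705, and within cells of 1 library its rho with KRT18 was near 0 in Epi-like cells (median -0.01 over 7 libraries). In trophoblast-like cells that rho was -0.136 to 0.582 (median 0.0754, 11 libraries), in ExE-Mech-like cells 0.0133 to 0.439 (median 0.195, 8 libraries), and in the 1 library each that could be used for mesoderm-like and endoderm-like cells 0.547 and 0.470. Genes of like level were sought only among 487 genes with a symbol and a mean of at least 50 CPM. Those whose levels ran most like those of KRT19 were IFI27L2 (r = 0.845), DSP, which encodes the desmosome protein that anchors keratin filaments at the membrane (r = 0.832), TPM1, a tropomyosin (r = 0.824), PALLD, which encodes an actin-associated protein (r = 0.804), and TAGLN2 (r = 0.804). DSP and TAGLN2 were also among the 5 closest to KRT8, at 0.713 and 0.716, after IFI27L2 at 0.763, and TBX3 (0.712) and SNX7 (0.694) followed. KRT18 had SNX2 (0.704), IFI27L2 (0.700), TBX3 (0.671), SNX7 (0.670) and TAGLN2 (0.668).

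Over the 62 sums the correlation of KRT7 was -0.06 with KRT8, -0.01 with KRT18 and -0.12 with KRT19. From cell to cell in trophoblast-like cells its rho ran from -0.402 to 0.538 with KRT18 (median 0.305, 11 libraries) and from -0.358 to 0.435 with KRT8 (median 0.211). Both were negative in the 2 wild-type libraries of Day 10 and positive in the other 9. The median with KRT19 was 0.00732. Among the same 487 genes, those most like KRT7 were AP1S1 (r = 0.840), AIF1L (0.758), IGSF8 (0.754), LMO4 (0.671) and ISYNA1 (0.651). The last of these served as a marker of AM-1-like cells, a class within amnion-like cells.

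In trophoblast-like cells KRT7 was at a lowest level of 122, a median of 248 and a highest level of 371 CPM over 11 libraries. Its median was 107 in Epi-like, 54.7 in amnion-like, 38.4 in transition-like, 6.39 in mesoderm-like, 5.94 in ExE-Mech-like and 4.94 in endoderm-like cells. Trophoblast-like cells exceeded endoderm-like cells in 11 of 11 libraries, by 5.38 ± 1.28 (SD, log2), and amnion-like cells in 7 of 7. They exceeded Epi-like cells in 9 of 11 libraries, by 1.42 ± 1.20, but in both wild-type libraries of Day 10 the Epi-like cells were higher, at 218 against 169 and 166 against 122 CPM. Epi-like cells exceeded mesoderm-like cells in 8 of 8 libraries (3.73 ± 1.20), and Epi-like and amnion-like cells were not separated (4 of 7, 0.39 ± 1.17).

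The share of cells with a UMI of KRT7, after thinning to 10000 UMIs, was 46.7% to 83.6% in trophoblast-like cells (median 68.7%) and 18.1% to 81.6% in Epi-like cells (median 55.6%). ExE-Mech-like cells had a median share of 3.66%, and endoderm-like cells had one of 2.08%. The median depth ranged from 11450 to 143737 UMIs in trophoblast-like, 8396 to 136240 in Epi-like, 10268.5 to 90697 in ExE-Mech-like and 5830 to 73338 in endoderm-like cells. Among endoderm-like cells without CGA the KRT7 level was 0.531 times that of all endoderm-like cells (median, 0 to 1.18 over libraries). It was 0.591 times in ExE-Mech-like (0.429 to 0.860) and 1.00 times in Epi-like cells (0.855 to 1.05). The ambient correction itself used choriogonadotropin in epiblast cells, so these ratios do not measure trophoblast RNA alike in each type. Its part in the KRT7 levels was not tested. In endoderm-like cells of mutant Day 12 replicate 2 no KRT7 UMI was found among 360643, which allows a level of up to 8.32 CPM. For KRT8, KRT18 and KRT19 the median shares were 99.7%, 99.8% and 97.0% in trophoblast-like cells and 100% for each in endoderm-like cells. In ExE-Mech-like cells they were 94.1%, 83.5% and 99.5%. KRT18 there ran from 44.5% to 100% over libraries, overlapping the 97.8% to 100% of trophoblast-like cells. Intervals and limits from counts cover counting error only.

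Between days the differences of KRT7 had opposite signs in Epi-like and trophoblast-like cells, and neither passed by edgeR. In wild-type Epi-like cells it was at 218 and 166 CPM in the libraries of Day 10, 149 and 145 at Day 12, then 58.2 and 47.1 at Day 14, without overlap between days. The difference from Day 10 to Day 14 was -1.80 (SE 0.41, adjusted p = 0.0264 by edgeR), and it passed without mutant Day 12 replicate 1 (adjusted p = 0.00577), without mutant Day 12 replicate 2 (0.00549), with no filter on low counts (1.40e-06, edgeR) and with DESeq2 (0.0011). It was farther from passing without either wild-type library of Day 10 or Day 14, with adjusted p from 0.0584 to 0.207 (edgeR), the highest without wild-type Day 14 replicate 1. In wild-type trophoblast-like cells it was at 169 and 122, then 248 and 371, then 361 and 271, a difference of 1.12 (SE 0.32, adjusted p = 0.0596 by edgeR). The Day 10 libraries were the lowest there, and Day 12 and Day 14 overlapped. Within cytotrophoblast-like cells the difference of KRT7 from Day 10 to Day 14 was 0.39 (SE 0.34, adjusted p = 0.551 by edgeR).

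Among classes of trophoblast-like cells, KRT7 and KRT19 were opposed. Extravillous-like cells, named from genes of invasive trophoblast such as LAIR2 and ISM2, had KRT7 at 706 CPM in wild type at Day 12 and at 585 and 821 at Day 14. Cytotrophoblast-like cells of these libraries were at 366, 255 and 242. KRT7 was higher in extravillous-like than in cytotrophoblast-like cells of 8 of 8 libraries, by 1.19 ± 0.44 (SD, log2). KRT19 was higher in cytotrophoblast-like cells of 8 of 8, by 1.72 ± 0.59, with medians of 1726 over 11 libraries against 589 over 8. KRT18 was higher in extravillous-like cells of 8 of 8, by 0.41 ± 0.24, and KRT8 differed by 0.16 ± 0.18 the other way, higher in cytotrophoblast-like cells of 6 of 8.

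Clusters named from genes of syncytiotrophoblast, the fused hormone-producing layer, differed between days. At Day 14 CGA made up 191442 CPM in wild-type replicate 1 and 153642 and 103687 in the mutants, and there KRT18 was at 17306 CPM in wild type (57 cells) and at 4515 and 6392 in the mutants (59 and 187 cells). KRT8 was at 6583, 2192 and 3194. The wild-type value of KRT18 was the highest of any type and library. The cells of mutant replicate 1 held a median of 4069 UMIs. Clusters of that name at Day 12 had CGA at or below 12572 CPM, and KRT18 at 1081 to 1678 CPM. In 3 of the 4 libraries this was below the CGA of cytotrophoblast-like cells of the same library (4358 against 11882, 3969 against 7937 and 2970 against 7940 CPM), and in the fourth it was above (12572 against 7002). The name goes against its defining gene at Day 12, and those clusters are not compared with the ones of Day 14.

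**Figure D3:**
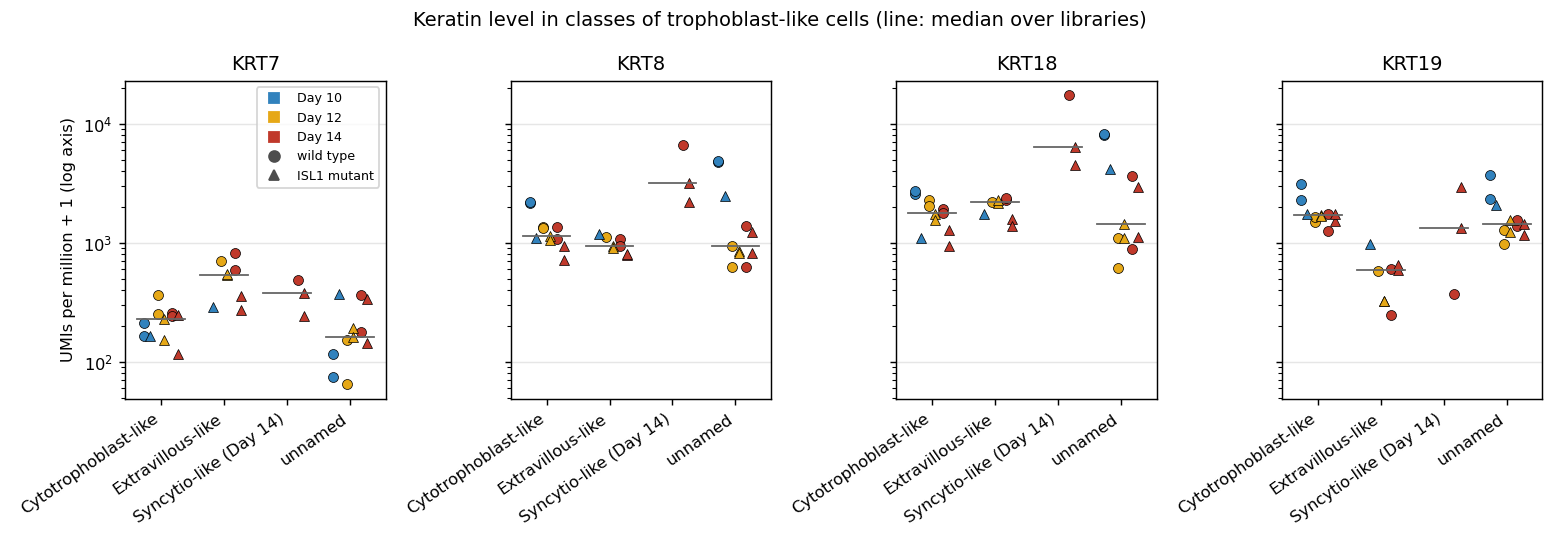
Level of each keratin (CPM + 1, log axis) in classes of trophoblast-like cells, with 1 symbol per library and the median as a line. Extravillous-like cells have the highest median of KRT7, 538, and the lowest of KRT19, 589, and syncytiotrophoblast-like cells, shown for the 3 libraries of Day 14 alone, reach 17306 for KRT18.

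Amnion-like cells had the highest medians of KRT8, KRT18 and KRT19 among the 7 types, over sets of libraries that differed between types. Within libraries they exceeded mesoderm-like cells in 4 of 6 for KRT18 (1.01 ± 2.56, SD, log2) and in 4 of 6 for KRT8 (1.10 ± 2.19). For KRT19 they did not separate from trophoblast-like or endoderm-like cells within libraries. In wild type at Day 14 the 4 genes made up 1.77% and 0.519% of all transcripts of these cells, against 0.0602% and 0.0622% in Epi-like cells of the same libraries. KRT18 was at 8742 and 2709 CPM, KRT19 at 3892 and 1032 and KRT8 at 4957 and 1434. The libraries differed by more than 3-fold for each gene, and they rest on 33 and 20 cells. At Day 10, the wild-type library with such cells had KRT18 at 3762 and KRT8 at 1996 (13 cells), and the mutant library had 7031 and 3818 (16 cells). In that wild-type library mesoderm-like cells (5641 and 3209) and trophoblast-like cells (5329 and 3462) were higher for both genes.

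Classes within amnion-like cells of Day 14 differed in the same libraries. AM-2-like cells, named from late amnion genes such as GABRP, had KRT19 at 5267 CPM in wild-type replicate 1 and 5346 and 5028 in the mutants. AM-1-like cells, named from early genes such as TMEM54, had it at 2671 and 795 in wild type and 1683 in mutant replicate 1. In both libraries that held both classes, AM-2-like cells were higher in all 4 genes, by a mean of 1.32 (log2) for KRT19, 1.23 for KRT7, 0.55 for KRT18 and 0.49 for KRT8. No test was made with 2 libraries.

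ISL1 was low in the amnion-like cells of some libraries. The wild-type library of Day 10 had it at 10.9 CPM there (13 cells), against 119 in the mutant library of that day. Mutant Day 12 replicate 1 held 124 cells named amnion-like from 5 markers, with ISL1 at 6.54 CPM and KRT18 at 261, KRT8 at 290 and KRT19 at 262, each the lowest of the 7 libraries. Without it, the lowest amnion-like level of KRT18 was 2709. Neither library was on a side of the Day 14 comparisons of genotypes, although both shared in the estimate of spread, and the ratios tested in amnion-like cells included the wild-type library of Day 10. Leaving out either, the differences at Day 14 had the same sign as with all libraries.

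The balance of chains, given as the ratio of type II transcripts (KRT7 and KRT8) to type I transcripts (KRT18 and KRT19), had medians of 0.388 in amnion-like, 0.431 in trophoblast-like, 0.346 in endoderm-like, 0.375 in ExE-Mech-like and 0.532 in Epi-like cells. Over libraries it ran from 0.382 to 0.531 in trophoblast-like, 0.350 to 0.613 in amnion-like, 0.184 to 0.475 in endoderm-like, 0.229 to 0.487 in ExE-Mech-like and 0.227 to 0.915 in Epi-like cells. The make-up of the type II transcripts differed, since KRT7 was 0.441 times KRT8 in Epi-like and 0.244 times in trophoblast-like cells (medians). Its median was 0.0236 times in amnion-like, 0.0134 times in ExE-Mech-like and 0.00560 times in endoderm-like cells. Wild-type trophoblast-like cells of Day 10 were at 0.0511 and 0.0352, within the range of amnion-like cells (0.0123 to 0.107).

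KRT19 over KRT18 in Epi-like cells was followed by day, with no test, and by genotype. The log2 ratio in wild type was -1.29 and -2.28 at Day 10, 0.17 and 0.05 at Day 12, then 1.29 and 0.80 at Day 14. In the mutants it was 0.29 at Day 10, 0.99 and 1.54 at Day 12, then 2.37 and 3.51 at Day 14. Within each day the mutant libraries lay above the wild-type ones. Day 10 had 1 mutant library, whose trophoblast-like cells held the trophectoderm gene CDX2 at 0.263 CPM against 60.2 and 76.5 in wild type. Stage and genotype cannot be told apart in that library. The mutant excess within days was 1.70 (log2, exact permutation test of genotypes within days, two-sided, p = 0.00926, the smallest that 108 arrangements allow). Adjusted over the 15 ratios and types tested it was 0.139, and with so few arrangements no ratio in any type could have reached an adjusted p of 0.01. In endoderm-like cells the excess was 0.91 (exact p = 0.0556, adjusted 0.370) and in trophoblast-like cells 0.56 (exact p = 0.0741, adjusted 0.370). For amnion-like cells the design cannot go below an exact p of 0.167, and for ExE-Mech-like cells below 0.0556.

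**Figure D4:**
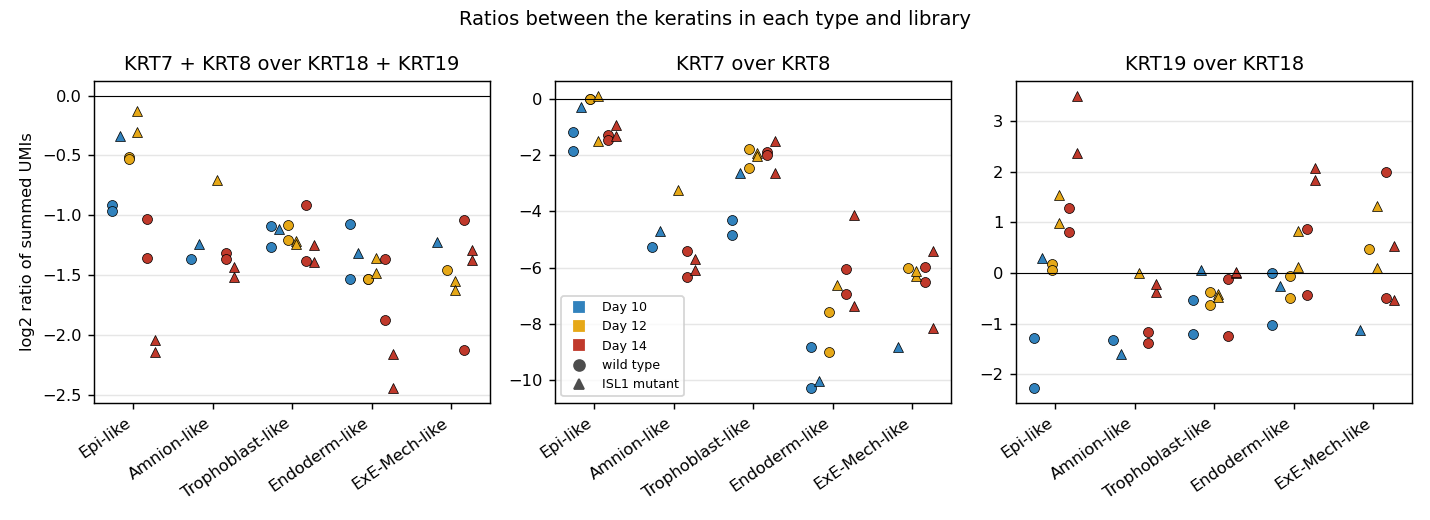
Log2 ratios of summed UMIs of keratins in 5 cell types, with 1 symbol per library (circles, wild type; triangles, mutant; color, day). KRT19 over KRT18 spans the widest range in Epi-like cells, where mutants lie above wild type within each day, and KRT7 over KRT8 is lowest in endoderm-like and ExE-Mech-like cells.

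The comparison of ISL1 mutants with wild type asked whether the edit moved the keratins within a type. At Day 14 none of 28 comparisons passed (4 genes in 7 types, 0 calls by edgeR, 8 with an unadjusted p below 0.05), and DESeq2 called 1. The types overlap, since cytotrophoblast-like and extravillous-like cells were also counted as trophoblast-like. Here and elsewhere, counts of unadjusted p stand without the share over all genes, so no excess can be read from them. The same holds for genotype calls by DESeq2 or without the filter on low counts. Where counts over all genes are given below, both settings called more genes than the main fit. The share of all genes that passed was 0.163% in Epi-like, 0.0442% in amnion-like and 0.0157% in extravillous-like cells and 0% in trophoblast-like, cytotrophoblast-like, endoderm-like and ExE-Mech-like cells. The differences ran from -1.06 to 1.31 on the log2 scale.

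The smallest adjusted p, 0.0515 (edgeR), was that of KRT7 in extravillous-like cells, which was at 585 and 821 CPM in wild type and at 355 and 271 in the mutants. Wild type held 550 and 35 such cells and the mutants 1255 and 435. CGA in them was at 2263 and 7200 CPM in wild type and 986 and 1333 in the mutants, and the part of either was not tested. The groups did not overlap in KRT7, with a difference of -1.06 (SE 0.20). DESeq2 called it (adjusted p = 0.00017) and so did edgeR without the filter on low counts (adjusted p = 0.0093). The share of all genes that passed in those fits is not given here. Without single libraries the adjusted p ran from 0.0507 to 0.323 (edgeR), the highest without mutant Day 14 replicate 2. Over all alternatives its difference stayed negative. In cytotrophoblast-like cells KRT7 was at 255 and 242 in wild type and 247 and 117 in the mutants, with overlap.

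In Epi-like cells at Day 14 KRT19 was at 287 and 284 CPM in wild type and 479 and 487 in the mutants, a difference of 0.85 (SE 0.29, adjusted p = 0.173, edgeR). KRT18 was at 117 and 163 in wild type and 92.5 and 42.8 in the mutants (-0.96, SE 0.37, adjusted p = 0.226, edgeR), and KRT8 at 140 and 128 against 99.0 and 78.8 (-0.52, SE 0.23, adjusted p = 0.288, edgeR). The genotypes did not overlap for any of these 3 genes, but 2 libraries stood on each side. Without single libraries the differences ran from 0.73 to 0.98 for KRT19, -1.47 to -0.59 for KRT18 and -0.66 to -0.38 for KRT8. Over all alternatives they reached -0.40 for KRT18 and -0.056 for KRT8, so the difference of KRT8 nearly vanished in 1 of them. Ambient RNA removed was 2.98% and 0.457% of the Day 14 libraries in wild type and 8.77% and 3.22% in the mutants. The part of that removal in the differences was not tested. Trophoblast markers in these cells were at 198 and 173 CPM in wild type and 502 and 265 in the mutants, and their part in the differences was not tested.

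In trophoblast-like cells at Day 14 KRT18 was at 2243 and 1834 CPM in wild type and 1264.5 and 1500 in the mutants, and KRT8 at 1332 and 1081 against 782 and 993. Mutant values lay below the wild-type ones for both genes, with differences of -0.55 (SE 0.23, adjusted p = 0.350) and -0.43 (SE 0.24, adjusted p = 0.450, both on the log2 scale by edgeR), without passing. Without single libraries these differences ran from -0.78 to -0.29 for KRT18 and from -0.68 to -0.16 for KRT8. KRT19 overlapped, at 945 and 1690 against 1269 and 1521.

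In ExE-Mech-like cells the same pair lay the other way at Day 14. KRT18 was at 681 and 319 CPM in wild type and at 1078 and 1092 in the mutants, and KRT8 at 562 and 360 against 689 and 1082. The genotypes did not overlap for either gene, and the differences of 1.15 (SE 0.60, adjusted p = 0.365) and 1.01 (SE 0.46, adjusted p = 0.319, both log2 by edgeR) did not pass. Without single libraries they ran from 0.65 to 1.92 and from 0.58 to 1.46. Trophoblast markers in these cells summed to 869 and 1070 CPM in wild type and to 1709 and 1902 in the mutants, and their part in the differences was not tested.

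In endoderm-like cells KRT19 was at 1494 and 1457 CPM in wild type at Day 14 and at 2887 and 3457 in the mutants. The groups did not overlap, and the difference of 1.09 (SE 0.30) had an unadjusted p of 0.00353 and an adjusted p of 0.469 by edgeR. The mutant of Day 14 replicate 2 held 11 such cells. In amnion-like cells KRT19 was at 3892 and 1032 in wild type and at 4114 and 5028 in the mutants, and the difference of 0.89 (SE 0.53, adjusted p = 0.593 by edgeR) ranged from 0.22 to 2.19 when single libraries were left out. The mutants held more of the AM-2-like class, with 52 of 69 and 23 of 23 cells against 18 of 33 and 2 of 20 in wild type, and within that class KRT19 was at 5267 in wild-type replicate 1 and at 5346 and 5028 in the mutants. Markers of trophoblast in amnion-like cells summed to 199 and 203 CPM in wild type and to 1154 and 383 in the mutants. The part of either in the difference was not tested. KRT18 overlapped completely in amnion-like cells, with 5328 and 5886 in the mutants between the wild-type values. Epi-derived cells named from mesenchyme markers, 180 and 31 in the mutants and few in wild type, were not counted as amnion-like. The part of leaving them out was not tested.

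At Day 12 none of 16 comparisons passed by edgeR (5 with an unadjusted p below 0.05), and DESeq2 called 1. The share of genes that passed was 0.00962% in Epi-like, 0.00661% in trophoblast-like, 0.00697% in cytotrophoblast-like and 0% in endoderm-like cells. The 1 was KRT18 in Epi-like cells, at 198 and 204 CPM in wild type and 84.9 and 38.6 in the mutants, a difference of -1.67 (SE 0.37, adjusted p = 0.173 by edgeR). Over all alternatives the difference ran from -2.37 to -0.91. KRT7 was at 149 and 145 against 107 and 36.0 (SE of the log2 difference 0.39, adjusted p = 0.437, edgeR), and KRT19 at 223 and 211 against 168 and 112.

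**Figure D5:**
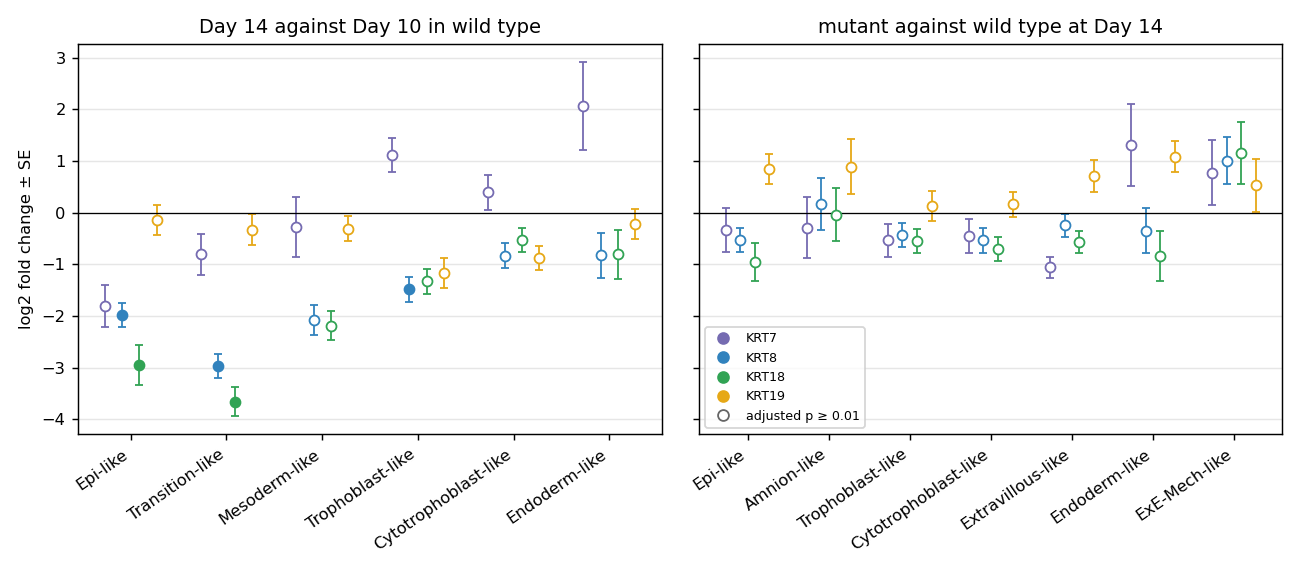
Log2 fold change with its standard error for each keratin in each type, for Day 14 against Day 10 in wild type (left) and mutant against wild type at Day 14 (right); filled symbols have an adjusted p below 0.01. Filled symbols occur on the left alone, for KRT8 and KRT18 in Epi-like and transition-like cells and for KRT8 in trophoblast-like cells.

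Whether the mutant effect differed between days or between types was tested directly, in 24 tests of which 0 passed (edgeR, 3 with an unadjusted p below 0.05). Between days, 0.00697% of all genes passed in cytotrophoblast-like cells and 0% in Epi-like, trophoblast-like and endoderm-like cells. The effect on KRT19 in Epi-like cells was -0.63 at Day 12 and 0.85 at Day 14, and the difference of 1.48 (SE 0.41) had an adjusted p of 0.347. Against trophoblast-like cells, the Day 14 effect on KRT19 was 0.94 higher in amnion-like cells (adjusted p = 0.755, edgeR), where 0.125% of genes passed. Without wild-type Day 14 replicate 1 it was 2.31 and passed (adjusted p = 1.26e-05, edgeR), and without replicate 2 it was -0.36. Leaving out either wild-type library thus changed its call or its sign. Against Epi-like cells, where 0.0138% of genes passed, the differences of the 4 genes ran from 0.09 to 1.15 and none passed.

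Genes of the wider pathway could be followed in part, since symbols were paired with identifiers for 1008 genes. Of 22 other keratins none had an identifier. Of 18 genes of desmosomes and keratin linkers 2 did, of 18 genes of epithelial junctions and polarity 4, of 13 other intermediate filaments 5, and of 20 regulators of simple epithelia 7. In wild-type trophoblast-like cells from Day 10 to Day 14, 1 of the 7 regulators passed, CDX2, a homeobox gene of the early trophectoderm, which fell by 7.82 on the log2 scale (adjusted p = 0.00487, edgeR), beside 2.18% of all genes that passed there. It was at 60.2 and 76.5 CPM in wild type at Day 10 and at 0.253 and 0.387 at Day 14, while the mutant library of Day 10 stood at 0.263. Of the other lists 0 of 2, 0 of 4 and 0 of 5 passed there, and no list gene passed in any other comparison of days or genotypes within a type. From Day 10 to Day 14 in wild-type trophoblast-like cells the median difference was -1.09 for the 4 junction genes and -0.94 for the 7 regulators. It was -0.68 for the 2 desmosome and linker genes and -0.38 for the 5 other intermediate filaments, beside 0.03 over all genes. No list was tested as a group.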

How the data were processed

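The authors had sequenced 3′ libraries of pooled embryos (10x Genomics), aligned and counted them with Cell Ranger 3.1.0 (named in the submitters' processing notes) against an Ensembl annotation of the cynomolgus macaque, kept cells by their mitochondrial reads and the genes found in each, and retained genes found in at least 3 cells. The authors deposited the UMI counts of 33539 cells as counted and the expected counts of 33330 cells after an estimate of ambient RNA had been subtracted with SoupX. The latter, whole numbers, were used unless stated otherwise. Such subtraction can remove transcripts that a cell made and can leave some that it did not. Genotype, day and batch came from the sample labels, and 0 columns belonged to other series.

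Cells of each day were integrated with Seurat 5.3.0 (5000 features, 30 components, 4 keratins and genes of the described lists left out), embedded with uwot 0.2.3 and clustered at a resolution of 0.8. Clusters were named from marker lists, those of the main types taken from the study. The main text of the study names no cytotrophoblast, extravillous or syncytiotrophoblast class, so these class names are not its own. The naming rule was revised after the clusters of all days had been seen and before any keratin was tested. A name needed at least 3 markers found in 25% of a cluster's cells. Doublets were neither called nor removed. Sums of UMIs over at least 5 cells of a type in a library were tested with edgeR 4.0.16 (quasi-likelihood test, TMM, filterByExpr, two-sided, Benjamini-Hochberg over all genes, false discovery rate of 1%) in R 4.3.3, with all groups of genotype and day sharing the estimate of spread. DESeq2 1.42.0 was an alternative, in which genes without an adjusted p were not counted. Ratios were tested by exact permutation and correlations and intervals (95%, exact binomial) were computed with Python 3.11.15, numpy 2.4.6, pandas 2.3.3 and scipy 1.17.1. To compare shares of cells, each cell was thinned to 10000 UMIs and shallower cells were left out. A count of 0 was read as allowing up to 3 counts.

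On simulated counts with 200 changed genes the test recovered 59.1% of 4-fold and 97% of 16-fold changes between Day 10 and Day 14 in Epi-like cells (9852 genes) and 28.8% and 68.2% in trophoblast-like cells (14643 genes). Between genotypes at Day 14 it recovered 37.9% and 83.3% in Epi-like (9862 genes) and 30.3% and 71.2% in trophoblast-like cells (14615 genes). At most 4.41% of 2-fold changes were recovered in any simulated comparison.

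The 4 keratins and the lists were chosen with earlier results of these data known. By the rule for named genes the text gives these keratins, ISL1, the genes of a list that passed a test and, for each keratin, the 5 genes with a symbol and a mean of at least 50 CPM whose log2(CPM + 1) correlated best with it. Besides these it names marker genes of the types and, in the closing section, genes of the lists that passed no test and were picked after their values had been seen. The files pair 1008 of the genes with symbols, and the rest are listed by identifier alone. Gene sequences were not used here.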

Additional observations from a re-analysis of the deposited data

How the results depend on the processing

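Of 108 tested keratin differences, 70 kept their sign and their side of the threshold in every alternative run for them, and 1686 of 1772 alternative fits did. The 4 calls for KRT8 and KRT18 in Epi-like and transition-like cells from Day 10 to Day 14 kept both outside the fits without wild-type Day 14 replicate 1, where those in Epi-like cells were lost. With the batch number as a replicate block 1 call changed, KRT8 in trophoblast-like cells from Day 10 to Day 14 (adjusted p = 0.0177, edgeR). Batch numbers were not taken to pair libraries, because deviations of same-numbered libraries of a genotype correlated at -0.06 to 0.20 in Epi-like and 0.01 to 0.21 in trophoblast-like cells, above 0.1 in 1 of 4 and 2 of 4 pairs. A block within genotypes was added after the data were seen.

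From Day 10 to Day 14, 5 calls became 11 with DESeq2, 9 without the filter on low counts and 2 to 5 without single libraries, where types lacking the library kept their values. From Day 10 to Day 12, 1 call became 4 with DESeq2, 2 without the filter, 2 with the block within genotypes, 0 in uncorrected counts, 0 with the compared groups alone and 0 to 2 without single libraries. Between genotypes 0 calls became 1 with DESeq2 and 1 without the filter, at Day 12 and at Day 14 alike. The 0 calls for amnion-like against other cells became 0 to 1 without single libraries. Over all genes from Day 10 to Day 14, 142 calls in Epi-like cells became 258 with DESeq2, 666 without the filter and 69 with the compared groups alone, and 329 in trophoblast-like cells became 1972, 692 and 4. They became 196 with the block. The cause was not tested. The median share of cells with a UMI over types and libraries was 23.8% for KRT7, 10.1% with cells thinned to 5000 UMIs and 36.7% without thinning, and 98.1% for KRT8 and 90.5% at 5000 UMIs. Fewer UMIs per cell lower such shares by construction.

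Signs turned as follows (log2). KRT7 in mesoderm-like cells from Day 10 to Day 14 was at 0.53 in uncorrected counts, and KRT19 in transition-like cells at 0.16 with at least 20 cells. For the mutant difference at Day 14 in amnion-like cells KRT7 was at 0.0862 with the replicate block and 0.0888 with principal components, and KRT18 at 0.20, 0.17 and, with the compared groups alone, 0.0207. At Day 12 the block within genotypes gave -0.0865 for KRT19 in cytotrophoblast-like and -0.15 in endoderm-like cells. Principal components gave 0.0894 for KRT18 in cytotrophoblast-like cells from Day 10 to Day 12. None of these had passed.

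Without single libraries 21 signs turned, the largest main size among all that turned being 1.31. From Day 10 to Day 14, KRT19 in Epi-like cells ran from -0.47 to 0.23 and in transition-like cells from -0.69 to 0.13, and KRT7 in mesoderm-like cells from -0.55 to 0.17. The mutant difference at Day 14 in amnion-like cells ran from -0.99 to 1.79 for KRT7, -0.49 to 1.36 for KRT8 and -0.66 to 1.08 for KRT18. In endoderm-like cells it ran from -0.85 to 1.81 for KRT7, -0.84 to 0.45 for KRT8 and -1.38 to 0.0939 for KRT18, and in ExE-Mech-like cells from -0.48 to 1.46 for KRT7 and -0.19 to 1.26 for KRT19. KRT19 ran from -0.16 to 0.49 in trophoblast-like and -0.00699 to 0.34 in cytotrophoblast-like cells, and KRT8 from -0.46 to 0.0103 in extravillous-like cells. At Day 12 in endoderm-like cells KRT7 ran from -5.05 to 1.59, KRT8 from -0.51 to 0.14 and KRT19 from -0.15 to 0.27. The amnion-like effect against Epi-like cells ran from -0.44 to 1.90 for KRT7 and -0.52 to 1.29 for KRT19, and against trophoblast-like cells from -0.24 to 2.00 and -0.36 to 2.31.

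Groups held 1 or 2 libraries, so 2-fold differences were mostly beyond the reach of the tests in the simulated data, and types with few cells rest on few embryos.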

Other observations

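A set of Epi-derived cells of Day 14 was named from mesenchyme markers when the Epi-derived cells were clustered again. It was counted neither as ExE-Mech-like nor as amnion-like. It held 180 and 31 cells in the mutant libraries, and 3 in wild-type replicate 1. Among these cells KRT18 was at 4361 and 6527 CPM in mutant replicates 1 and 2, KRT19 at 4865 and 6140, KRT8 at 2560 and 3699 and KRT7 at 115 and 40.5. The trophoblast marker list reached a sum of 2341 and 1730 CPM there, and its part in these levels was not tested. Clusters drawn on principal components put these cells with the amnion-like ones.

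Genes of the described lists also differed in level between types. They were picked here after their values had been seen, and no test was made. EZR, which encodes the membrane linker ezrin, had a median of 708 CPM in amnion-like, 384 in trophoblast-like and 179 in Epi-like cells. RAB25, a small GTPase of epithelial sorting, had medians of 207, 76.9 and 19.1 in the same types and of 2.35 in ExE-Mech-like cells. CDH3, which encodes placental cadherin, was at medians of 96.3, 114 and 40.5. EPCAM, which encodes an epithelial adhesion molecule, ran in another order, with medians of 938 in endoderm-like, 644 in amnion-like, 216 in Epi-like and 87.8 in trophoblast-like cells. VIM, the filament protein vimentin of mesenchymal cells, was at a median of 2702 in ExE-Mech-like and 680 in mesoderm-like cells, types in which KRT18 stood at 938 and 1560. NES, the filament gene nestin, was at a median of 68.7 in Epi-like and 0.566 in trophoblast-like cells, and ITGA6, an integrin of hemidesmosomes, was at 139 in endoderm-like cells.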
